A study of Rattus norvegicus with 8 samples.

Results

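Pre-mRNA splicing factors were examined in PC12, a rat pheochromocytoma cell line that makes and releases catecholamines, after treatment with forskolin, a plant compound that activates adenylyl cyclase and so raises cyclic AMP. The set holds every probe set whose only annotated gene symbol starts with Srsf, Hnrnp, Sf3a, Sf3b, Snrp, Prpf, U2af or Zrsr, or with Rbm followed by a digit, together with Rsrp1, Puf60, Tra2a, Tra2b and Akap8l. Chip A carried 111 of them among its 15866 probe sets and chip B carried 67 among 15276, which makes 178 of 31142 in all and 100 of the 13810 genes named by a single symbol. The rule reads symbols alone and no measured value, but it was written with earlier results of these data known. Of the 100 genes, 31 were on both chips, and the Puf60 and Prpf8 probe sets were among 100 that both chips carry in common.

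Total RNA of PC12 cells was hybridised to 8 arrays, 2 with forskolin and 2 labelled no forskolin on each chip. The series title calls the comparison group an inactive control, and the labels do not say what it received. The labels give neither the dose nor the exposure time, and do not say whether replicate arrays came from separate cultures, so the p-values below measure only the spread between these samples. All values are from 1 cell line grown in culture.

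Introns are removed from pre-mRNA by the spliceosome, which is built from small nuclear ribonucleoproteins (snRNPs) and many further proteins. U1 snRNP marks the 5' splice site, the U2AF proteins read the 3' splice site, and the SF3 subunits of U2 snRNP hold the branch point. The Prp factors then help assemble and activate the catalytic particle. SR proteins mostly favour the use of nearby exons and hnRNPs often oppose it, so their balance steers alternative splicing. In neural and endocrine cells the same proteins shape exon choice in ion channels and secretory proteins.

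Array medians lay within 0.021 of each other on chip A and within 0.025 on chip B (log2), and values were used as deposited. On chip A, arrays correlated at 0.9984 to 0.9985 within groups and at 0.9920 to 0.9926 between them. On chip B the corresponding ranges, 0.9864 to 0.9924 and 0.9865 to 0.9901, overlapped. As a check of the treatment labels, the cyclic AMP targets Fos, Nr4a1, Crem and Per1 each had a probe set called higher with forskolin on chip A, by 0.71 to 4.03. A second Fos probe set on chip A was not called (0.06). Of 14 listed chromaffin cell genes, 13 were on the chips and 11 were above the low-value filter. Dbh and Slc18a1, which make noradrenaline and load it into vesicles, were below it. Of the listed genes, 2 were called higher, and the list's summed linear level on chip A was 22138 to 22744 without forskolin and 25840 to 26237 with it. Of the genes listed for other cell types and present on the chips, 3 of 6 fibroblast, 3 of 3 glial, 2 of 5 adrenal cortex and 3 of 5 blood or endothelial genes passed it, and none of these was called.

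Few splicing factors passed the test. Each chip was fitted on its own with limma over all probe sets whose mean linear value reached the chip's 30th percentile, and a probe set was called at an adjusted p (Benjamini-Hochberg over everything tested on that chip) under 0.05. On chip A, 102 of the 111 probe sets were tested; 1 was called higher with forskolin (Zrsr2-ps1) and 4 were called lower (Rsrp1, Hnrnpa1, Srsf1 and Akap8l). Over all 11106 tested probe sets, 2.03% were called higher and 1.26% lower, against 0.98% and 3.92% of the splicing factors. Calls in either direction came to 5 of 102 members, beside 3.30% of all tested. At an unadjusted p under 0.05, 4 members were higher and 14 lower, beside 7.10% and 10.3% of all tested. The split of higher to lower calls was 1 to 4 on the deposited scale, 3 to 7 with array medians centred and 3 to 5 after quantile normalization.

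On chip B, 55 of the 67 were tested; 1 was called higher (Zrsr2-ps1 again) and 0 were called lower by limma. The background there was 0.150% higher and 0.00935% lower of 10693 tested probe sets. At an unadjusted p under 0.05, 4 chip B members were lower and 1 was higher, beside 3.33% and 1.64% of all tested. The median standard error of a member's change was 0.096 on chip B and 0.041 on chip A, so changes of the size seen on chip A were less detectable on chip B. The chip B array of no forskolin replicate 2 also read high for most splicing factors, and 15 of the 55 changes on chip B had the opposite sign without it. Left out on chip A, no forskolin replicate 2 turned the sign of 20 of 102 changes. The share of signs turned over all tested probe sets is not given here. Among the 73 probe sets of named genes on both chips, 7 signs turned without no forskolin replicate 2. With the other arrays left out, 7 turned without no forskolin replicate 1, 8 without forskolin replicate 1 and 6 without forskolin replicate 2.

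Zrsr2-ps1 was the only member called higher on the deposited scale. RefSeq lists it as a transcribed pseudogene of Zrsr2, a U2AF-related protein that recognises the 3' splice site of minor, U12-type introns, and places it within the Commd1 gene. On chip A its log2 values were 7.54 and 7.58 with forskolin and 6.81 and 6.86 without. Both treated arrays lay well above both controls, and the change was 0.73 (SE 0.05, 95% interval 0.61 to 0.84), or 1.65-fold, at a limma adjusted p of 5.51e-05.

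Its chip A control level was under the filter level of 7.02, so the probe set entered the test through the forskolin arrays; it was the only tested member of which this was true. It was also called with no filter (adjusted p 1.47e-04) and was not tested at the 50th percentile. Chip B carries another Zrsr2-ps1 probe set, at 8.43 and 8.66 with forskolin and 7.46 and 7.62 without, above that chip's filter level of 6.02 in both groups. The change there was 1.00 (SE 0.11, 95% interval 0.75 to 1.25), or 2.00-fold, at a limma adjusted p of 0.022. Without forskolin replicate 2, the chip B adjusted p was 0.0627 and the change 0.89.

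The parent gene Zrsr2 was not called. On chip A it stood at 6.99 and 7.26 with forskolin and at 7.35 and 7.22 without. The groups overlapped, with a change of -0.16 (SE 0.09, limma adjusted p 0.403). On chip B it stood at 7.30 and 7.50 against 7.71 and 7.58, a change of -0.24 (limma adjusted p 0.977). Parent and pseudogene are related in sequence, and how far their probe sets share signal was not tested.

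The host gene Commd1, which acts in copper handling and protein trafficking, stood at 7.49 and 7.47 with forskolin and 7.48 and 7.41 without on chip A. Its change was 0.03 (limma adjusted p 0.78). The neighbouring Cct4, a chaperonin subunit, changed by -0.04 (adjusted p 0.778). Neither gene next to Zrsr2-ps1 that had a named probe set on chip A was called.

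**Figure D1:**
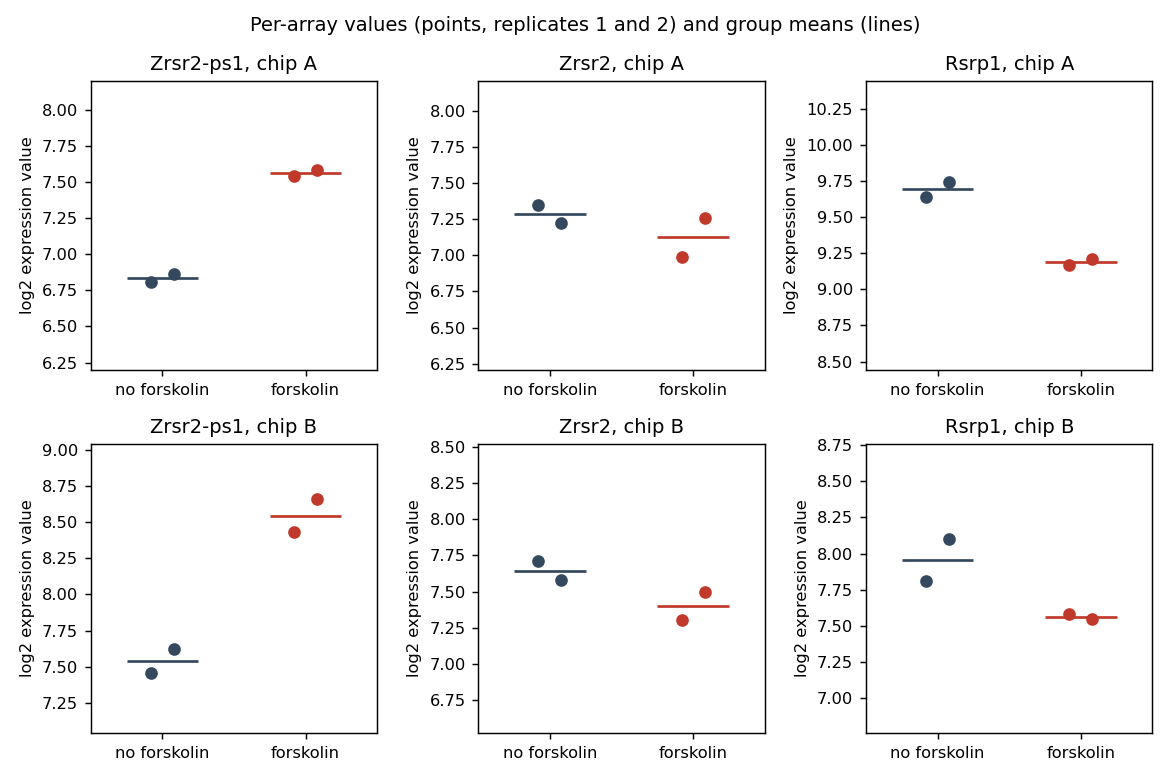
Log2 expression value of each array (points, replicates 1 and 2) and group means (lines) for Zrsr2-ps1, Zrsr2 and Rsrp1 on chip A and chip B, with no forskolin on the left and forskolin on the right of each panel. Zrsr2-ps1 was higher on both forskolin arrays of each chip (7.54 and 7.58 against 6.81 and 6.86 on chip A) and Rsrp1 was lower (9.17 and 9.21 against 9.64 and 9.74 on chip A).

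Rsrp1, an arginine- and serine-rich nuclear protein, had the largest fall among the tested members on either chip. Its chip A values were 9.17 and 9.21 with forskolin and 9.64 and 9.74 without. The groups were clear of each other, and the change was -0.50 (SE 0.05, 95% interval -0.61 to -0.39; limma adjusted p 4.49e-04). It was called in 10 of 10 alternative analyses, at changes from -0.55 to -0.45. On chip B another Rsrp1 probe set read 7.58 and 7.55 with forskolin and 7.81 and 8.10 without, a change of -0.39 (SE 0.11). That one was not called (adjusted p 0.794), although both treated arrays lay under both controls. Its value depended on the control arrays: without no forskolin replicate 1 it was -0.53 (adjusted p 0.0282) and without no forskolin replicate 2 it was -0.25 (adjusted p 0.475).

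Among the other SR proteins, Srsf1, the founding member that promotes exon inclusion and also acts in mRNA export, fell on 1 of its 2 probe sets. The dimmer set read 9.71 and 9.74 with forskolin and 9.91 and 9.98 without, a change of -0.22 (SE 0.04; limma adjusted p 0.0216). The brighter set read 11.00 and 11.06 against 11.15 and 11.17, a change of -0.13 at an adjusted p of 0.0958. Treated arrays were below controls on both, and the brighter set was called only with array medians centred (adjusted p 0.0302). Without no forskolin replicate 1 the dimmer set changed by -0.25, and without no forskolin replicate 2 by -0.19. The dimmer set kept its call in 1 of 4 analyses that left out an array, with adjusted p from 0.00783 to 0.0911.

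The remaining SR proteins were not called. Srsf11, an arginine/serine-rich factor picked out after its values were seen, was at 9.98 and 9.88 with forskolin and 10.06 and 10.15 without on chip A (-0.17, adjusted p 0.12) and changed by 0.05 on chip B (0.09 without no forskolin replicate 2). The 2 chip A probe sets of Srsf6, a regulator of alternative exons, changed by -0.13 (adjusted p 0.115) and 0.04 (0.524). Srsf5 had the smallest p of the SR proteins with a higher value, at 10.90 and 10.94 against 10.81 and 10.87 (0.08, adjusted p 0.339).

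Srsf2, which binds exonic enhancers, changed by 0.04 and -0.04 on its 2 chip A probe sets. Srsf10, a splicing repressor when dephosphorylated, changed by -0.03 on chip A (0.06 without no forskolin replicate 2) and by -0.17 on chip B (-0.08 without it). Srsf3 and Srsf7, both also adaptors for mRNA export, changed by 0.06 and -0.06 on chip B, the latter 0.02 without no forskolin replicate 2. Tra2a and Tra2b, the Transformer-2 homologues that activate exons with GAA-rich enhancers, changed by 0.02 and -0.01 on chip A (Tra2b by 0.01 after quantile normalization), and Tra2a by -0.11 on chip B (-0.02 without no forskolin replicate 2). In all, 14 SR-type probe sets were tested on chip A. Of these, 2 were called lower (14.3%, beside 1.26% of all tested). At an unadjusted p under 0.05, 5 were lower and 0 higher, beside 10.3% and 7.10% of all tested. Their median change was -0.019, with 9 of 14 under 0 (64.3%, beside 55.0% of all tested). Without no forskolin replicate 2, 7 of 14 were under 0.

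Of the hnRNPs, which coat nascent transcripts, 25 probe sets for 16 genes were tested on chip A and 1 was called (4.0%, beside 3.30% of all tested). That was 1 of 3 probe sets of Hnrnpa1, a repressor of exons that often opposes Srsf1. The called set read 9.28 and 9.27 with forskolin and 9.48 and 9.56 without, a change of -0.24 (SE 0.04, 95% interval -0.34 to -0.15; limma adjusted p 0.0177). The brightest set read 10.76 and 10.72 against 10.66 and 10.73, a change of 0.05 (95% interval -0.04 to 0.14), and the dimmest changed by 0.04. The 3 sets therefore did not move alike, and which transcripts each one reads is not stated. Without no forskolin replicate 1 the called set changed by -0.28, and without no forskolin replicate 2 by -0.20. The called set kept its call in 1 of 4 analyses that left out an array (adjusted p 0.00356 to 0.0741).

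Hnrnpu, a nuclear scaffold protein, showed the same kind of split, and was picked out here after its values were seen. Its dimmest chip A set read 7.92 and 8.04 against 8.17 and 8.26 (-0.23, adjusted p 0.0773), while the others changed by -0.03 and -0.01. The dimmest set was called with array medians centred (adjusted p 0.0242) and after quantile normalization (0.0338). Without no forskolin replicate 1 the dimmest set changed by -0.27, and without no forskolin replicate 2 by -0.18.

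Hnrnpa2b1, which binds RNA in the nucleus and in transport granules, changed by -0.04 and -0.17 on chip A and by -0.21 on chip B, with overlapping groups on all 3 probe sets. Without no forskolin replicate 2 these values were -0.01, -0.02 and 0.02, so the chip B sign turned. Without no forskolin replicate 1 they were -0.07, -0.32 and -0.44. Hnrnpd, also known as AUF1, an mRNA decay factor, changed by 0.01; Hnrnpl, a regulator of CA-rich elements, by -0.06; and Hnrnpdl by 0.01 and 0.07 on chip A. The chip A median over the 25 hnRNP sets was -0.040, with 18 under 0 (72.0%, beside 55.0% of all tested). Without no forskolin replicate 2 it was 0.004, with 10 under 0. On chip B, 7 hnRNP probe sets were tested and 0 were called, beside 0.159% of all tested. Of these 7, 6 had a change under 0, beside 61.9% of all tested. Their median was -0.116, and without no forskolin replicate 2 it was 0.018, with 3 of 7 under 0. The lowest p there was that of Hnrnpf, which binds G-rich elements, at 6.36 and 6.28 against 6.49 and 6.57 (-0.21, adjusted p 0.977), and Hnrnph2 changed by 0.09 (0.35 without no forskolin replicate 2 and -0.17 without replicate 1).

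The stretch upstream of the start site is shown for the called genes that the RefSeq promoter table holds (rat assembly GRCr8), because CREB, a factor activated by cyclic AMP signalling, binds the motif TGACGTCA and its shorter form TGACG. Each sequence is the 250 bases before the start, 5' to 3' on the gene's strand, with TGACG on either strand (CGTCA on the other) in capitals. Rsrp1 and Zrsr2-ps1 are not in that table. Srsf1 (chr10:73336248-73336497, plus strand) has 1 match, 122 bases before the start; Hnrnpa1 (chr7:136253868-136254117, plus strand) has 2; Akap8l (chr7:12012812-12013061, minus strand) has 0. U2af1 (chr20:9755095-9755344, minus strand) and Rbm18 (chr3:39884578-39884827, minus strand) are added as the only members with the whole motif, and neither was called.
Srsf1: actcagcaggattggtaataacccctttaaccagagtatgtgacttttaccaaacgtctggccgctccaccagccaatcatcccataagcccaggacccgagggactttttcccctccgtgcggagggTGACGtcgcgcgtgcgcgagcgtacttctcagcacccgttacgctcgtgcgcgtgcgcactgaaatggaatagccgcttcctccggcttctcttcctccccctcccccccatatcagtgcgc
Hnrnpa1: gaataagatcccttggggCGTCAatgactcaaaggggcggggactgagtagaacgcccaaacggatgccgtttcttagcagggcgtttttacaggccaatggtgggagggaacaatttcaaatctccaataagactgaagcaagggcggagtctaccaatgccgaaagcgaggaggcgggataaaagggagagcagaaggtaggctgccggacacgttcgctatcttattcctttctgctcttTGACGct
Akap8l: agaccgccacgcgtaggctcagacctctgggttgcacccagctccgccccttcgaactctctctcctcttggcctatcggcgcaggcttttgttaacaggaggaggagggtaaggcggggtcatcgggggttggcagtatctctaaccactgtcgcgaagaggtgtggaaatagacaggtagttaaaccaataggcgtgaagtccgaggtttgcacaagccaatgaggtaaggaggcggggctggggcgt
U2af1: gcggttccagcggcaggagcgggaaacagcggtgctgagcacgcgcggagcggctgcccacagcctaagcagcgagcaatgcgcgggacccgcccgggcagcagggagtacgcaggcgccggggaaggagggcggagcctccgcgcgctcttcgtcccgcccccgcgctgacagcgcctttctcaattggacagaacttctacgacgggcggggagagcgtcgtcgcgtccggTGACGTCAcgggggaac
Rbm18: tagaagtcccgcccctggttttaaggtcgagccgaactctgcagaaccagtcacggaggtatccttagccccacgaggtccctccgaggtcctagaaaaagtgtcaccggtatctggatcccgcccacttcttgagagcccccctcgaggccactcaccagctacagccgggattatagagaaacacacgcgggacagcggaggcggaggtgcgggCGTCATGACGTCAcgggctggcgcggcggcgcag

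TGACG stood in the upstream window of 46 of the 89 splicing factor genes with an entry (51.7%). It stood in 28.8% of 9034 other genes with a tested probe set and in 5480 of all 27457 genes in the table. The median GC content of the windows was 58.4% for the splicing factors and 60.4% for the other tested genes. The whole motif TGACGTCA, which contains TGACG on both strands, was in 2 of 89 (2.25%), 3.06% and 1.78% of the same sets. These are counts of letters, and neither is a measurement of binding. The 3 called genes shown carry 1, 2 and 0 matches, and all of them were called lower.

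The Snrp genes, part of the spliceosome core, encode Sm ring proteins and U1 and U2 particle proteins. Of their probe sets, 8 were tested on chip A and 3 on chip B, and 0 were called. The share called over all tested was 3.30% and 0.159%, so 0 calls among so few sets says little about the group. On chip A the changes ran from -0.10 to 0.07, with a median of -0.013 (0.007 without no forskolin replicate 2). At an unadjusted p under 0.05, 2 chip A sets were lower and 0 higher, beside 10.3% and 7.10% of all tested. Snrpd3, an Sm ring protein, read 11.02 and 11.09 with forskolin and 11.13 and 11.15 without (-0.09, adjusted p 0.275). Snrpn, the imprinted neuronal form of the SmB protein, read 7.59 and 7.55 against 7.52 and 7.49 (0.07, adjusted p 0.5). On chip B, 3 were tested: Snrpd1 changed by -0.11 and -0.04 (the latter 0.10 without no forskolin replicate 2) and Snrpf by 0.02. The U1 protein gene Snrnp70, whose symbol falls outside the rule, changed by 0.00 on chip A and -0.02 on chip B, with signs that turned under other scalings.

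The SF3 subunits were similarly close to 0. On chip A, 11 probe sets for 8 genes ranged from -0.10 to 0.11 with a median of -0.005 (0.005 without no forskolin replicate 2). Of these, 0 had an unadjusted p under 0.05, beside 7.10% higher and 10.3% lower of all tested. Sf3b1, the subunit at the branch point and the target of several splicing inhibitors, changed by 0.11 (10.25 and 10.42 against 10.19 and 10.26) and by 0.04 on its chip A sets. Sf3b3 had the smallest p with a lower value (-0.07, adjusted p 0.296). Sf3a2 was the only SF3 gene tested on chip B and changed by 0.07.

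Among the Prp factors, 11 probe sets were tested on chip A, with a median of -0.017 (0.009 without no forskolin replicate 2). Of these, 0 were called, beside 3.30% of all tested. Only 1 had an unadjusted p under 0.05, with a lower value, beside 10.3% of all tested. That was Prpf3, a U4/U6 snRNP protein, at 8.91 and 8.95 against 9.04 and 9.04 (-0.11, adjusted p 0.2), while its other tested set changed by 0.04. Prpf8, the large protein at the catalytic centre, changed by 0.00 on chip A and -0.05 on chip B on the same probe set, with signs that turned under other scalings and, on chip B, without no forskolin replicate 2 (0.01). Prpf38a changed by 0.05 on chip A.

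On chip B, 7 of 7 tested Prp probe sets had changes under 0, beside 61.9% of all tested, with a median of -0.151. In 5 of them both treated arrays were below both controls, an arrangement that held for 22.2% of all tested probe sets. Without no forskolin replicate 2, 5 of 7 were under 0 and the median was -0.062. Prpf39, a U1-associated factor, read 7.62 and 7.67 with forskolin and 7.84 and 8.18 without (-0.37, adjusted p 0.919). The high control value of Prpf39 was on no forskolin replicate 2, and its change was -0.20 without that array. With replicate 1 left out instead, it was -0.54 at an adjusted p of 0.0271. Its chip A set changed by -0.06.

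For recognition of the 3' splice site, the remaining genes were not called. U2af2, the large U2AF subunit that binds the polypyrimidine tract, changed by -0.05 on chip A and by 0.07 and 0.01 on chip B, which became -0.07 and -0.05 without no forskolin replicate 2. U2af1, the small subunit that reads the AG at the intron end, read 10.71 and 10.83 against 10.72 and 10.87 on chip B (-0.03, and 0.05 without that array). Puf60, a U2AF2-related factor, read 10.13 and 10.14 with forskolin and 10.25 and 10.23 without on chip A (-0.11, adjusted p 0.153). The same Puf60 probe set on chip B read 10.63 and 10.51 against 10.63 and 10.75 (-0.12, adjusted p 0.993, and -0.06 without that array). Over all tested sets of this role, Zrsr2 and Zrsr2-ps1 included, the median was -0.072 on chip A and -0.025 on chip B. These medians were further below 0 without no forskolin replicate 2, at -0.102 and -0.048.

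The Rbm genes are named for an RNA-binding motif and include proteins with roles outside splicing. On chip A, 25 probe sets for 21 genes were tested and 0 were called by limma; 3 were higher and 2 lower at an unadjusted p under 0.05. Rbm38, a target of p53 that stabilises mRNAs, read 9.35 and 9.41 with forskolin and 9.22 and 9.21 without (0.16, adjusted p 0.0788). Rbm15, part of the complex that methylates adenosine in RNA, read 8.61 and 8.61 against 8.21 and 8.44 (0.28, adjusted p 0.0841), and was picked out after its values were seen. Both were called with array medians centred (adjusted p 0.0391 and 0.0242) and after quantile normalization (0.039 and 0.047). The Rbm15 change depended on the control arrays: it was 0.39 without no forskolin replicate 2 and 0.16 without no forskolin replicate 1. For Rbm38 these values were 0.16 and 0.17.

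Rbm39, a U2AF2-related coactivator, had 4 tested probe sets with changes of -0.11, -0.06, -0.06 and 0.00; the last turned sign when array medians were centred. Rbm5, which regulates exons of apoptosis genes, changed by -0.05 on chip A and -0.09 on chip B (-0.01 without no forskolin replicate 2). Rbm3, a cold-induced RNA-binding protein, read 12.04 and 11.94 against 11.96 and 11.98 (0.02). On chip B, 22 Rbm probe sets were tested and 0 were called, beside 0.159% of all tested. An unadjusted p under 0.05 was seen for 0, beside 1.64% higher and 3.33% lower of all tested. Rbm12 and Rbm26 had the smallest p in each direction, with changes of 0.16 and -0.22; the latter was -0.07 without no forskolin replicate 2. The chip B Rbm median moved from -0.030 to -0.007 without that array. On chip A the Rbm median moved the other way without no forskolin replicate 2, from -0.008 to -0.017. There, 13 of 25 sets were under 0 with it (52.0%, beside 55.0% of all tested) and 15 without it.

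Akap8l, a nuclear protein related to the anchoring protein AKAP95 of the cyclic AMP-dependent kinase, fell on 1 of its 3 chip A probe sets. The called and brightest set read 8.83 and 8.81 with forskolin and 9.02 and 9.20 without (-0.29, SE 0.06, limma adjusted p 0.0395). The others changed by -0.08 (adjusted p 0.517) and -0.06 (0.656), with overlapping groups. Without no forskolin replicate 1 the called set changed by -0.38, and without no forskolin replicate 2 by -0.20. The call was near the threshold: it was kept in 4 of 10 alternative analyses, and the adjusted p ranged from 1.60e-04 without no forskolin replicate 1 to 0.125 without forskolin replicate 2.

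**Figure D2:**
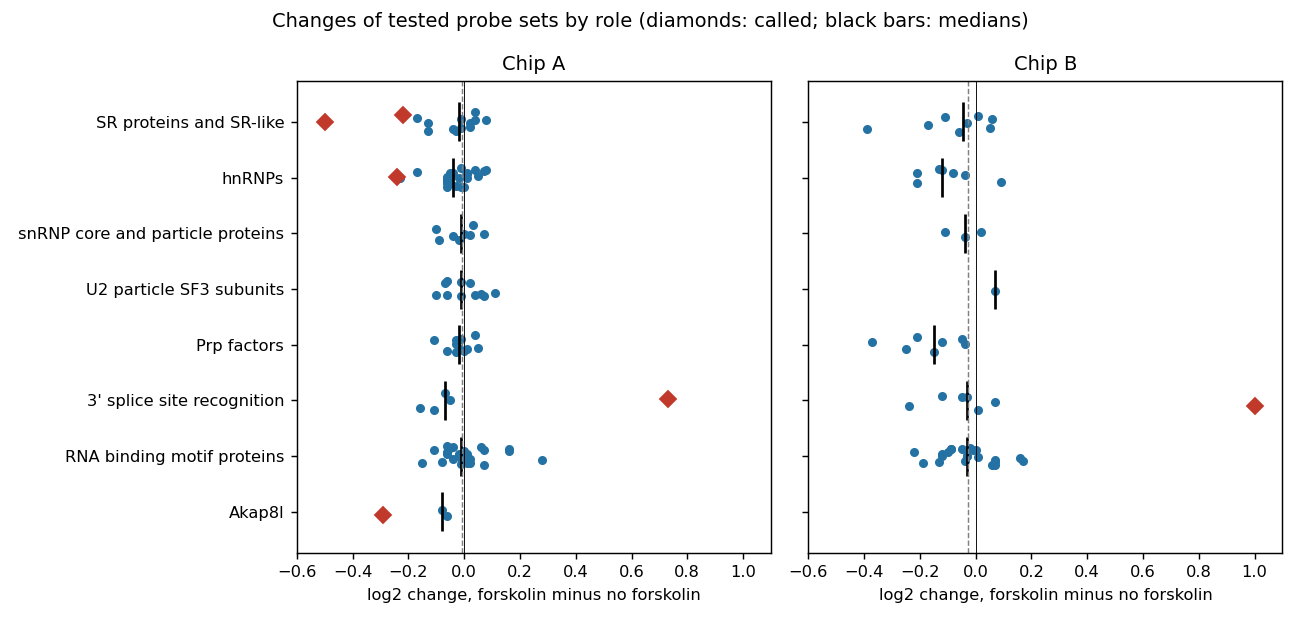
Log2 change, forskolin minus no forskolin, of every tested splicing factor probe set by role on chip A and chip B; red diamonds are called probe sets, black bars are group medians and the dashed line is the median of all tested probe sets of the chip. Most points lie near 0, and only Zrsr2-ps1 (0.73 and 1.00), Rsrp1 (-0.50), Akap8l (-0.29), Hnrnpa1 (-0.24) and Srsf1 (-0.22) are called.

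Genes with more than 1 tested probe set gave a further view of the calls. On chip A there were 16 such genes with 39 probe sets; 3 of them had a call and 0 were called on every set. For Hnrnpa1 and Srsf1 the call was not on the brightest set. Among all 1160 named genes with several tested sets, 73 had a call and 25 were called on every one. The median spread between the highest and lowest change of a gene was 0.10 for the splicing factors and 0.061 for all named genes, and 8 of the 16 genes had changes of both signs, beside 41.3% of all named genes. On chip B, 2 of 8 such genes had both signs, beside 45.4%, and the median spread was 0.097 beside 0.089. Counting each gene through its brightest set, 1 of 79 genes was higher and 2 lower on chip A, beside 1.95% and 1.30% of all named genes. On chip B, 1 of 46 was higher and 0 lower, beside 0.172% and 0%. At an unadjusted p under 0.05, 4 of the 46 were lower (8.7%, beside 3.33% of all named genes). At that threshold 1 was higher, beside 74 of 4651 named genes.

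**Figure D3:**
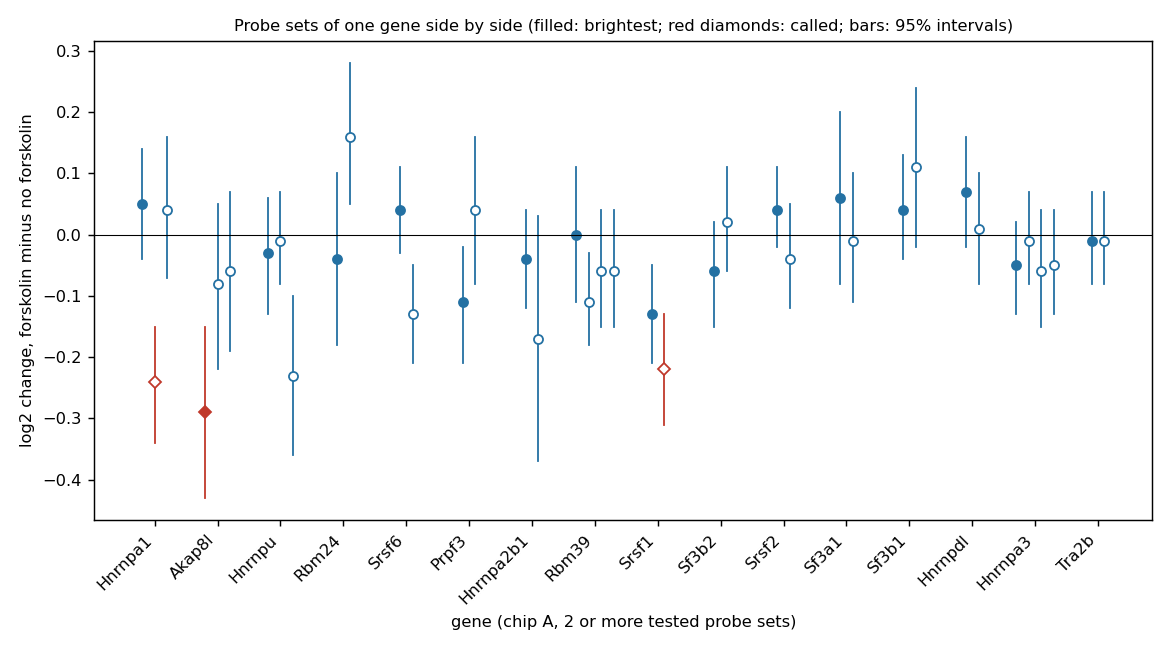
Log2 change, forskolin minus no forskolin, of each tested chip A probe set for the 16 splicing factor genes with 2 or more; bars are 95% intervals, filled circles are each gene's brightest set and red diamonds are called sets. The called Hnrnpa1 set (-0.24) lies apart from the other Hnrnpa1 sets (0.05 and 0.04), and the called Akap8l set (-0.29) lies below the others (-0.08 and -0.06).

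Splicing factors were mostly bright. When the tested probe sets of a chip were divided into 4 equal classes of brightness, 51 of the 102 members on chip A and 23 of the 55 on chip B (41.8%) fell in the brightest class. In that class on chip A, 0 of 51 members were called by limma, beside 3.08% of the others, and 7 (13.7%) had a lower value at an unadjusted p under 0.05, beside 13.0% of the others. Their median change was -0.017, and that of the others was -0.021. All 4 lower calls (Rsrp1, Hnrnpa1, Srsf1 and Akap8l) were in the next brightest class, among 26 members (15.4%, beside 3.67% of the others called in either direction). The members' median there was -0.045 and the others' -0.015. Zrsr2-ps1 was the only call among the 11 members of the dimmest class, where 2.75% of the others were called, and 0 of 14 were called in the class above it, beside 3.62% of the others. On chip B the Zrsr2-ps1 call was among 18 members of the next brightest class (5.56%, beside 0.226% of the others), whose median was -0.091 beside -0.025 for the others.

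**Figure D4:**
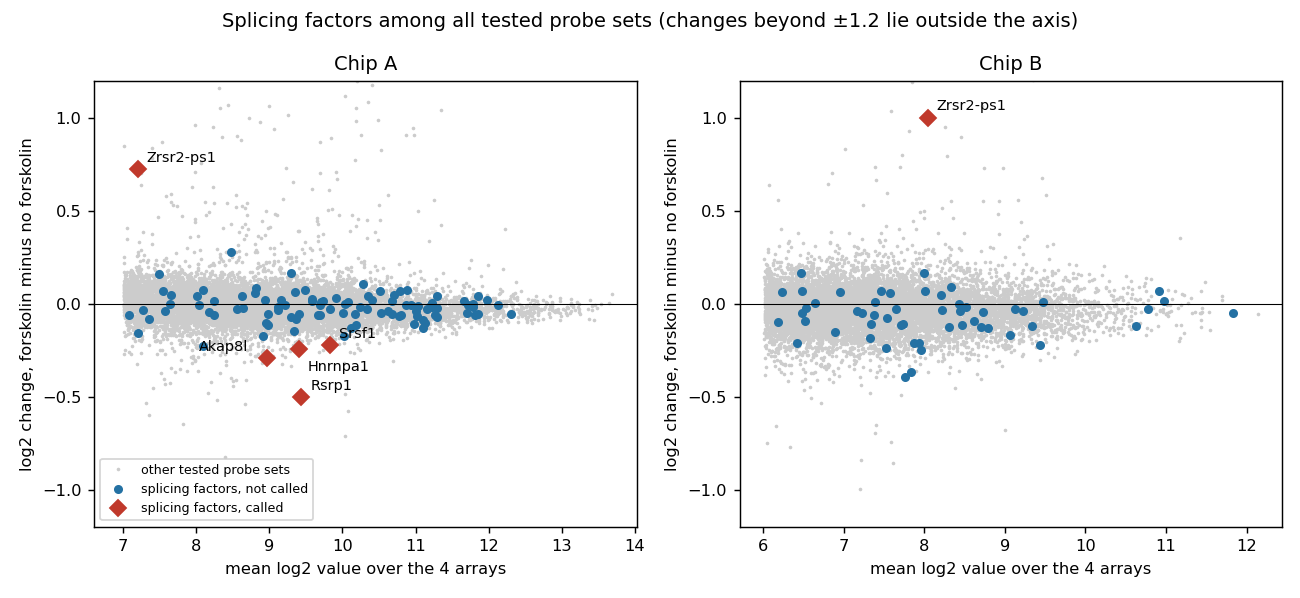
Log2 change, forskolin minus no forskolin, against the mean log2 value over the 4 arrays for each tested probe set of chip A and chip B; grey points are other probe sets, blue circles are splicing factors that were not called and red diamonds are called ones. Splicing factors cluster toward the bright end and near 0, with the chip A medians at -0.020 for splicing factors and -0.008 for all tested.

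Across the whole list the shift was small. The median change was -0.020 on chip A, where 65 of 102 members (63.7%) were below 0, beside -0.008 and 55.0% for all tested probe sets. On chip B it was -0.050, with 39 of 55 (70.9%) below 0, beside -0.026 and 61.9%. The 2 groups of arrays did not overlap for 44 of 102 members on chip A (43.1%, beside 48.5% of all tested). Of these, 14 were above the controls (20.4% of all tested) and 30 below (28.0%). On chip B the groups did not overlap for 19 of 55 (34.5%, beside 32.7%), with 3 above (10.4% of all tested) and 16 below (22.2%). The members' medians changed when a control array was left out. Without no forskolin replicate 2 they were -0.001 on chip A and -0.003 on chip B. The median of all tested probe sets without that array is not given beside them. Probe sets outside the list also had their highest median deviation on that array, 0.012 on chip A and 0.024 on chip B.

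That array was high for splicing factors on chip B. There, 41 of 55 members (74.5%) lay above their own 4-array mean on no forskolin replicate 2, with a median deviation of 0.101, beside 60.0% of other probe sets, while the median deviations on the other arrays ran from -0.033 to -0.021. Other probe sets, weighted to the members' brightness classes, deviated by 0.037 on it. On chip A, no forskolin replicate 2 was also the highest, with a median deviation of 0.029 and 75 of 102 members (73.5%) above their mean, beside 59.7% of other probe sets and a brightness-weighted deviation of 0.016. What set this array apart was not tested. Without no forskolin replicate 1, the chip B median was -0.117.

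**Figure D5:**
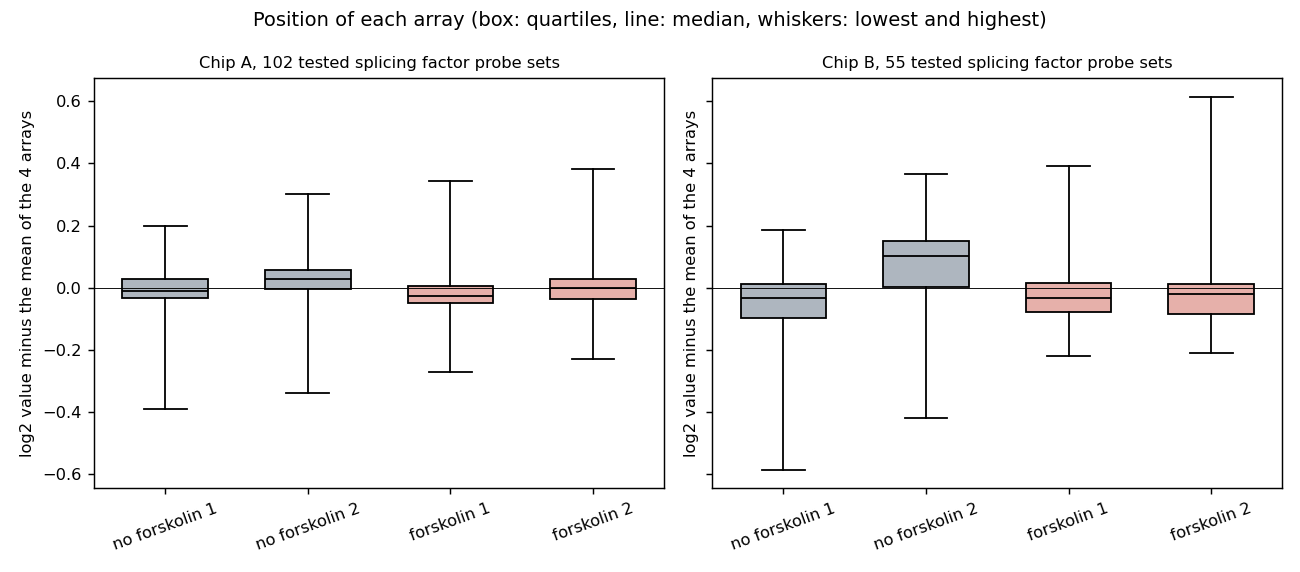
Log2 value of each tested splicing factor probe set minus its mean over the 4 arrays, by array, for chip A (102 probe sets) and chip B (55); boxes are quartiles, the line is the median and whiskers reach the lowest and highest values. The box of no forskolin replicate 2 on chip B sits above the others, with a median of 0.101.

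Of the genes tested on both chips, 27 were splicing factors: 14 were below 0 on both chips (51.9%, beside 39.4% of 1651 named genes), 3 were above 0 on both and 10 differed in sign. Across these genes, which are not independent replicates, Pearson's r between the chips was 0.81 and Spearman's rho 0.27. Without Zrsr2-ps1 and Rsrp1 the values were 0.05 and 0.08 over 25 genes, so the relation rested on those genes. Over all 1651 named genes they were 0.50 and 0.30. The labels do not say whether both chips received the same RNA.

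Other splicing genes outside the rule had calls near the share over all named genes. From a list of 121, 94 genes were tested on chip A through their brightest set, with a median change of -0.016. Of these, 2 were called higher (2.13%, beside 1.95% of all named genes) and 2 lower (2.13%, beside 1.30%). Clk1, a kinase that phosphorylates SR proteins, rose from 9.76 and 9.87 to 10.06 and 10.09 (0.26, limma adjusted p 0.0174). Elavl4, the neuronal RNA-binding protein HuD, rose from 8.48 and 8.61 to 8.82 and 8.80 (0.27, adjusted p 0.0326). Luc7l3, a U1-associated protein, fell from 10.78 and 10.91 to 10.51 and 10.55 (-0.31, adjusted p 0.00787).

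Ppil1, a spliceosomal prolyl isomerase, fell from 9.02 and 9.05 to 8.82 and 8.76 (-0.25, adjusted p 0.0174). The helicase gene Ddx5 was called on a dimmer set (10.75 and 10.71 against 10.88 and 10.97, -0.19, adjusted p 0.0405) and changed by -0.01 on its brighter one. On chip B, 50 were tested and 0 called by limma, beside 0.172% higher and 0% lower of all named genes. At an unadjusted p under 0.05, 1 was higher and 2 were lower, beside 74 and 155 of 4651 named genes. Sfpq, a paraspeckle and splicing protein, had a chip B set at 9.86 and 9.74 with forskolin and 9.02 and 9.22 without (0.68, adjusted p 0.0965; 0.00933 after quantile normalization). Another chip B Sfpq set changed by -0.31, and its 2 chip A sets by 0.04 and -0.04. Syncrip, Tardbp and Arglu1, the next smallest p there, changed by -0.28, -0.24 and -0.25. Their highest values were all on no forskolin replicate 2 (7.38, 8.82 and 7.90). For Syncrip and Tardbp these were not the brightest chip B sets. The other chip B sets changed by -0.06 and 0.05 for Syncrip and by -0.06 for Tardbp.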

How the data were processed

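The authors deposited 1 value per probe set and array for each chip. The deposited values were taken as log2 expression values from their range; the labels do not state how the authors made them (summary method, normalization, log base). No renormalization was applied. Each chip was fitted alone with limma 3.58.1 (lmFit, eBayes with a trend) in R 4.3.3, 2 arrays against 2, two-sided, with Benjamini-Hochberg adjustment over all tested probe sets. An exact permutation test of 2 against 2 cannot go below 0.333. Probe sets under the 30th percentile of the mean linear value were left out. Probe sets were named from GEO's platform annotation, updated by gene number to the RefSeq table of GRCr8; all 178 members matched, and 9 (chip A) and 2 (chip B) that list several genes were left out. The fit was tested on simulated data.

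Named genes were those called, the smallest p in each direction per role and chip, other probe sets of called genes, a panel (including Snrnp70) and treatment checks; Zrsr2, the neighbours of Zrsr2-ps1 and further probe sets of named genes were added after values were seen. The members and lists were chosen with earlier results of these data known. Alternatives were quantile normalization, median centring, no filter, a 50th percentile filter, no trend, a replicate block and leaving out each array. Replicate numbers did not pair the arrays. Promoter sequences are RefSeq's.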

Additional observations from a re-analysis of the deposited data

How the results depend on the processing

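The Zrsr2-ps1 call held in 9 of 9 alternatives for its chip A set and 9 of 10 for its chip B set. Except with no filter, the chip A set entered these alternatives only through its forskolin arrays. Its count is therefore not separate support for the call. The Rsrp1 call held in 10 of 10 on chip A. The Hnrnpa1 and Srsf1 sets kept their calls in 6 of 10 and Akap8l in 4 of 10. On chip A, probe sets and genes called higher were 1 in the reported analysis, 3 after quantile normalization or median centring, 0 with the 50th percentile filter, where Zrsr2-ps1 was not tested, and 1 to 2 when arrays were left out in turn. Probe sets called lower were 4, and 7 with median centring and 1 with the replicate block. Hnrnpu gained a lower call after quantile normalization, and Akap8l lost its call with no filter and with no trend. The count also changed with arrays left out. Genes called lower were 2, and 4 with median centring or through the set with the smallest p, 1 with no filter, no trend or the block, and 1 to 3 with arrays left out. Other splicing genes called higher were 2, and 1 with no filter or the block and 0 to 2 with arrays left out; those called lower were 2, and 6 with median centring, 1 with the block and 2 to 5 with arrays left out. On chip B, splicing factors called higher were 0 to 1 and lower 0 to 2 with arrays left out; other splicing genes called higher were 1 after quantile normalization and 0 to 1 with arrays left out, and lower 0 to 1. The cause of these changes was not tested. The replicate block is reported only here: same-numbered arrays' deviations correlated at 0.0 on chip A and 0.2 on chip B over 2 pairs, so the numbers were not taken to pair the samples. An arm left with 1 array is assumed to vary like the other. Of 723 values of single probe sets, 650 kept direction and side of the threshold, 29 lost a call, 8 gained one and 36 changed sign. Sign changes by scaling were all in values near 0: after quantile normalization Tra2b (0.01) and Prpf8 (-0.0005) on chip A and Prpf8 (0.00) and Snrnp70 (0.01) on chip B, and with median centring Prpf8 (-0.0036), Snrnp70 (-0.0020) and Rbm39 (-0.0003) on chip A and Snrnp70 (0.0023) on chip B. With arrays left out in turn, signs also changed on chip A for Srsf10 (-0.12 to 0.06), Tra2a (-0.03 to 0.07), Tra2b (-0.04 to 0.03), Hnrnpd (-0.05 to 0.07), Prpf8 (-0.02 to 0.02), Snrnp70 (-0.05 to 0.05), Rbm3 (-0.03 to 0.07), Rbm5 (-0.13 to 0.02), Rbm39 (-0.06 to 0.07), the dimmest Hnrnpa1 set (-0.0022 to 0.09) and the dimmest Akap8l set (-0.12 to 0.0032). On chip B they did for Hnrnph2 (-0.17 to 0.35), Snrpf (-0.01 to 0.04), Srsf6 (-0.09 to 0.12), Srsf7 (-0.16 to 0.04), U2af1 (-0.10 to 0.05), U2af2 (-0.07 to 0.21), Hnrnpa2b1 (-0.44 to 0.02), Prpf8 (-0.12 to 0.01) and Snrnp70 (-0.07 to 0.03). The number of arrays, 2 per group, limits the precision.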

Other observations

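Probe sets of splicing factors under the low-value filter numbered 9 on chip A and 12 on chip B, and left 1 and 5 genes with no tested set on that chip. Their changes ran from -0.33 to 0.14 on chip A and from -0.21 to 0.09 on chip B. The lowest was that of Rbm12b, an RNA-binding motif protein, which read 6.43 and 6.26 with forskolin and 6.62 and 6.72 without on chip A; it was picked out after its values were seen. It was not part of the test.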
